A study of Homo sapiens with 12 samples.

Results

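Aminoacyl-tRNA synthetases are the enzymes that join each amino acid to its transfer RNA, and their genes are described here across hairpin and oxygen conditions in MDA-MB-231 cells, a triple-negative human breast cancer line. The members were chosen by gene symbol alone: the amino acid's letter followed by ARS, with or without a suffix 1 or 2, plus the irregular names EPRS, FARSA, FARSB, FARS2, EARS2 and PARS2. The rule found 37 genes among the 24641 rows of the deposited count table, of which 20 without the suffix 2 were taken as cytosolic and 17 with it as mitochondrial. The libraries formed 4 groups of 3: shRIPOR3 in hypoxia, shControl in hypoxia, shRIPOR3 in normoxia and shControl in normoxia. shRIPOR3 cells carried a short hairpin RNA against RIPOR3, shControl cells a control hairpin, and hypoxia was 24 hours at 1% O2 with 5% CO2. The sample names give 1 hairpin for each arm and no hairpin sequence, so an effect of losing RIPOR3 and an effect of the hairpin itself cannot be told apart. The labels do not say whether the 3 libraries of a group came from separate cultures, so the p-values measure the spread between these libraries, which may be technical.

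Cytosolic synthetases charge the transfer RNAs used by ribosomes in the cytosol, while a separate set, encoded in the nucleus and imported, serves the ribosomes inside mitochondria. The sets are not wholly separate: GARS and KARS each give rise to a cytosolic and a mitochondrial form from the same gene, and mitochondria make glutaminyl-tRNA by charging with glutamate (EARS2) and then amidating it. Several cytosolic synthetases sit in a large complex held together by the scaffold proteins AIMP1, AIMP2 and EEF1E1. When amino acids run short, the kinase EIF2AK4 senses uncharged tRNA and translation of the transcription factor ATF4 goes up. ATF4, paired with C/EBP proteins, binds response elements near many amino acid genes, and cytosolic synthetase genes are among its known targets.

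The response element's letters were looked for in the promoters of the members, and the windows that hold them are shown because of how they divide between cytosolic and mitochondrial genes. Each window, from RefSeq on GRCh38.p14, ran from 250 bases before to 50 bases after a gene's start. The core searched was TGATGCAA on either strand, which reads TTGCATCA on the other, and the looser form was TGATGNAA, which contains the core. Printed below are 30 bases around each match, 5′ to 3′ on the gene's own strand, with the match in capitals.
AARS: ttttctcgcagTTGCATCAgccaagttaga
CARS: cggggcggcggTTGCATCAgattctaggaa
IARS: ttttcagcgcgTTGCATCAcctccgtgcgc
MARS: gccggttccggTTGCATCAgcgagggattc
NARS: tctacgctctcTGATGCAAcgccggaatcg
TARS: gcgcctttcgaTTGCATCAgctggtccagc
GARS: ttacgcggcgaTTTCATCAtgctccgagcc
YARS2: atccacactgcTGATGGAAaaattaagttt

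These stretches lie at chr16:70289675-70289704 (AARS, minus strand), chr11:3057407-3057436 (CARS, minus), chr9:92293692-92293721 (IARS, minus), chr12:57488053-57488082 (MARS, plus) and chr18:57621804-57621833 (NARS, minus). Those of TARS, GARS and YARS2 lie at chr5:33440956-33440985 (plus), chr7:30594834-30594863 (plus) and chr12:32756076-32756105 (minus). A window was at hand for 16 of the 20 cytosolic and 14 of the 17 mitochondrial genes, and the cytosolic DARS, LARS, VARS and YARS had none. Some genes had more than 1 window, and a gene was counted if any of its windows held the letters. The core was present in 6 of 16 cytosolic genes (37.5%) and in 0 of 14 mitochondrial genes, against 295 of 27305 genes (1.08%). Counted by window, it was present in 304 of all 35116 windows (0.866%). The looser form added GARS and YARS2, and it was present in 7 of 16 cytosolic genes, 1 of 14 mitochondrial genes and 1217 of all 27305 genes (4.46%). In CARS, IARS, MARS, NARS and TARS the match lay within 22 bases of the start, whereas in AARS it spanned positions -187 to -180. These are matches of letters, and no binding was measured.

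The libraries held 31781324 to 52526813 counts in hypoxia and 14750734 to 30032858 in normoxia. Levels are given as CPM, the count relative to library size, after scaling with edgeR's trimmed mean of M values, and as CPM per kilobase of merged exon where different genes are compared. RIPOR3 was scarce but followed its label: it had 0.0813 to 0.201 CPM in shRIPOR3 and 0.542 to 0.837 CPM in shControl under hypoxia, and 0 to 0.035 CPM in shRIPOR3 and 0.21 to 0.277 CPM in shControl under normoxia. The hypoxia-induced gene CA9 had 15.1 to 16.4 CPM in hypoxic and 0.108 to 0.158 CPM in normoxic shControl cells. In shRIPOR3 cells CA9 had 1.33 to 1.65 CPM in hypoxia and 0 to 0.0661 CPM in normoxia. The mesenchymal marker VIM ranged from 401 to 760 CPM over all libraries. Of the receptors that define the triple-negative type, ESR1 and PGR stayed at or below 0.33 and 0.683 CPM and ERBB2 ranged from 30.3 to 44.3 CPM. Of markers of other cell types, PTPRC (blood) stayed at or below 0.151 CPM, PECAM1 and CDH5 (endothelium) at or below 5.6 and 8.59 CPM, COL1A1 and PDGFRB (fibroblast) at or below 4.48 and 7.26 CPM, and ALB (liver) at or below 0.0372 CPM. KRT8, an epithelial keratin, was at 888 to 1090 CPM. In these bulk libraries fewer cells expressing a gene and less of its RNA per cell cannot be told apart.

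Cytosolic synthetase RNA was several times more abundant than mitochondrial synthetase RNA in every library. Summed over the 20 genes, the cytosolic level was 1187 ± 5.74 CPM per kb in hypoxic shRIPOR3 cells, 899.9 ± 4.26 in hypoxic shControl cells, 1476 ± 18.3 in normoxic shRIPOR3 cells and 1220 ± 11.5 in normoxic shControl cells (SD, n = 3 each). The 17 mitochondrial genes summed to 130.4 ± 1.29 CPM per kb in hypoxic shRIPOR3, 121.0 ± 0.202 in hypoxic shControl, 148.2 ± 2.21 in normoxic shRIPOR3 and 144.8 ± 0.883 in normoxic shControl cells. Knockdown cells thus carried the larger cytosolic share at either oxygen level, with a ratio of the sums of 9.107 ± 0.117 in shRIPOR3 and 7.436 ± 0.0338 in shControl under hypoxia, and 9.964 ± 0.117 in shRIPOR3 and 8.425 ± 0.0292 in shControl under normoxia. The ratio does not depend on how libraries are scaled, and the 12 values fell into 4 groups that did not overlap. The mitochondrial sum leans on 1 gene, IARS2, which was lower in shRIPOR3 cells. It had 34.7 CPM per kb in shRIPOR3 and 46.0 in shControl under hypoxia, and 40.2 in shRIPOR3 and 49.7 in shControl under normoxia. By the sums and levels given here, IARS2 carries most of the shift of the ratio between hairpins, and more of it in hypoxia than in normoxia. The larger cytosolic share in shRIPOR3 cells thus rests mainly on this 1 gene. A ratio without IARS2 was not computed for each library.

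FARSA, the alpha subunit of the phenylalanine enzyme, had the highest mean per kilobase in all 4 groups, though its libraries overlapped those of SARS in normoxic shRIPOR3 cells (156 ± 12.3 and 153 ± 4.96 CPM per kb). In normoxic shControl cells it had 148 ± 6.83 CPM per kb, followed by TARS (threonine) at 122 ± 0.329, KARS (lysine) at 117 ± 1.29, NARS (asparagine) at 112 ± 1.82 and SARS (serine) at 111 ± 0.862. The NARS and SARS libraries overlapped, while the other neighbours in that order did not. FARSB, the beta subunit of the same phenylalanine enzyme, lay at 25.8 ± 1.36 CPM per kb. The mitochondrial genes filled the bottom of the order with the exception of IARS2 (isoleucine), which was 12th at 49.7 ± 1.80 CPM per kb and overlapped LARS (leucine) at 50.2 ± 0.432. The next mitochondrial gene, RARS2 (arginine), had 12.8 ± 0.291 CPM per kb, and MARS2 (methionine) had 1.40 ± 0.112.

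Per kilobase, GARS (glycine) averaged 101 ± 1.00 CPM per kb in hypoxic shRIPOR3, 65.7 ± 1.54 in hypoxic shControl, 115 ± 2.49 in normoxic shRIPOR3 and 66.7 ± 0.535 in normoxic shControl cells. Its libraries overlapped those of a neighbour in the order in each group: NARS in both hypoxic groups, KARS in normoxic shRIPOR3 and EPRS in normoxic shControl cells. AARS (alanine) averaged 90.9 ± 1.19 CPM per kb in hypoxic shRIPOR3, 52.0 ± 0.851 in hypoxic shControl, 101 ± 0.988 in normoxic shRIPOR3 and 61.0 ± 2.26 in normoxic shControl cells. It overlapped TARS in hypoxic shRIPOR3 and DARS (aspartate) in normoxic shControl cells. DARS averaged 49.2 ± 1.2 CPM per kb in hypoxic shRIPOR3, 59.9 ± 4.15 in hypoxic shControl, 48.1 ± 1.32 in normoxic shRIPOR3 and 57.8 ± 2.33 in normoxic shControl cells.

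VARS2, the mitochondrial valine enzyme, was the single member left out of the tests for low counts. It had 3, 0 and 2 counts in hypoxic shRIPOR3 libraries, 1, 0 and 2 in hypoxic shControl, 0 in each of the 3 normoxic shRIPOR3 libraries, and 1, 0 and 4 in normoxic shControl, so no fold change is given. Of its merged exon length in GENCODE 29, 22.0% is shared with other genes, GTF2H4 among them. SARS2 shares 57.0% of its exon length with other genes, among them the model AC011455.2 on the same strand. HARS2 and HARS, which lie head to head, share 15.8% and 8.38% with other genes, each other included. Overlaps with other genes reach 13.3% in MARS and 10.6% in WARS, genes on the other strand among them. The library kit was stranded, but the counting was not stated to use strand, so reads from such overlaps cannot be assigned with certainty.

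In normoxia the RIPOR3 hairpin raised most cytosolic synthetase genes. Of 20, 14 rose, VARS and DARS fell, and QARS, KARS, FARSA and HARS did not pass (edgeR's quasi-likelihood test, Benjamini-Hochberg adjusted p under 0.05 over 15648 genes). Over all genes tested, 25.1% were called higher and 20.6% lower, and the median log2 fold change was 0.03, against 0.27 over the cytosolic genes. GARS, AARS and WARS rose at least 1.5-fold, a change that 4.53% of all genes passed in that direction. Among the 2086 genes above 100 CPM, where 19 of the 20 cytosolic members lie, 36.8% were called higher and the median was 0.03, against 0.34 over those 19.

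GARS, the glycine enzyme (ENSG00000106105.13, chromosome 7, 30594681 to 30634033, plus strand, GRCh38), showed the largest rise of a cytosolic member in normoxia. It had 485, 467 and 483 CPM in shRIPOR3 libraries against 276, 275 and 279 CPM in shControl libraries, a log2 fold change of 0.79 ± 0.0353 (SE; edgeR adjusted p = 9.96e-15). AARS, the alanine enzyme (ENSG00000090861.15, chromosome 16, 70252295 to 70289543, minus strand), had 459, 450 and 454 CPM in shRIPOR3 against 278, 263 and 282 CPM in shControl libraries (0.73 ± 0.0364). In neither gene did the hairpins overlap, and the gap was many times the spread within a group. WARS, which charges tryptophan, had 200, 195 and 201 CPM in shRIPOR3 against 124, 122 and 120 CPM in shControl libraries (0.70 ± 0.036).

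YARS (tyrosine) rose by 0.54 ± 0.035, with 245, 247 and 243 CPM in shRIPOR3 against 174, 164 and 167 CPM in shControl libraries. MARS (methionine) had 162, 164 and 164 CPM in shRIPOR3 against 113, 114 and 120 CPM in shControl (0.50 ± 0.0379), and SARS (serine) 574, 577 and 608 CPM in shRIPOR3 against 421, 425 and 427 CPM in shControl (0.47 ± 0.042). All shRIPOR3 libraries exceeded all shControl libraries for these genes. The smaller rises belonged to IARS (0.46), NARS (0.39), CARS (0.34), EPRS (0.34), RARS (0.21), FARSB (0.19), LARS (0.11) and TARS (0.10). EPRS, a single protein with a glutamate and a proline domain, had 457, 450 and 458 CPM in shRIPOR3 and 349, 362 and 368 CPM in shControl libraries.

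DARS and VARS went the other way. DARS, the aspartate enzyme, had 190, 191 and 199 CPM in shRIPOR3 against 243, 224 and 229 CPM in shControl libraries (-0.26 ± 0.0457, edgeR adjusted p = 4.06e-05). VARS, the valine enzyme, had 195, 204 and 202 CPM in shRIPOR3 against 220, 216 and 223 CPM in shControl libraries (-0.13 ± 0.0353, edgeR adjusted p = 0.00298). The groups did not overlap in either gene. QARS, which charges glutamine, had 144, 142 and 145 CPM in shRIPOR3 and 144, 138 and 145 CPM in shControl libraries, and these overlapped (0.01 ± 0.0354).

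**Figure D1:**
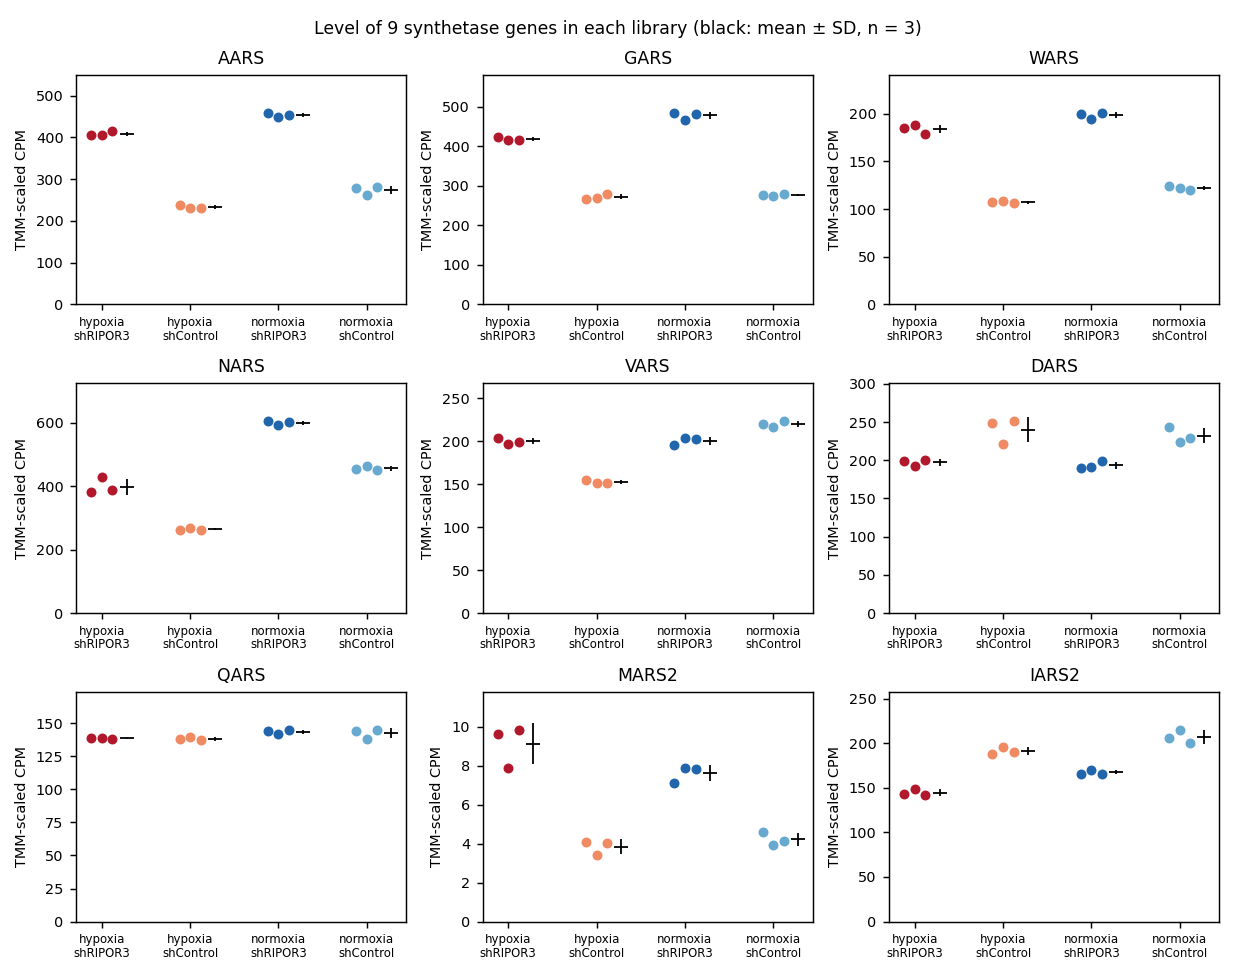
TMM-scaled CPM of 9 synthetase genes in each of the 12 libraries (points), with the mean ± SD of 3 libraries in black and groups along the horizontal axis. AARS, GARS and WARS sit higher in shRIPOR3 at both oxygen levels, DARS and IARS2 sit lower, QARS stays between 137 and 145 CPM, and VARS is low in hypoxic shControl libraries at 151 to 155 CPM.

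Fewer of the mitochondrial genes passed in normoxia. Of 16 tested, MARS2, RARS2, WARS2, PARS2, TARS2, YARS2 and LARS2 rose, IARS2 fell and 8 did not pass, with a median log2 fold change of 0.11. Over all genes tested, 25.1% were called higher and 20.6% lower, and 23.3% were called higher among those under 100 CPM. MARS2 alone of the 16 rose at least 1.5-fold, which 4.53% of all genes did. The count called higher depended on a library: without replicate 3 of normoxic shRIPOR3, 4 mitochondrial genes were called higher in place of 7. Of the 8 that did not pass, FARS2 had the lowest value (-0.08) and SARS2 the highest (0.14).

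MARS2, the mitochondrial methionine enzyme (ENSG00000247626.4, chromosome 2, 197705369 to 197708387, plus strand), had 7.13, 7.91 and 7.84 CPM in shRIPOR3 against 4.59, 3.93 and 4.13 CPM in shControl libraries (0.85 ± 0.117, edgeR adjusted p = 1.99e-06). RARS2 had 43.4, 43.8 and 43.6 CPM in shRIPOR3 against 31.9, 33.4 and 32.5 CPM in shControl libraries (0.42 ± 0.0446). WARS2 (tryptophan) had 15.0, 14.9 and 15.6 CPM in shRIPOR3 against 11.3, 10.7 and 12.3 CPM in shControl libraries (0.40 ± 0.0733). The hairpins did not overlap in any of these. PARS2, the mitochondrial proline enzyme, rose by 0.33 ± 0.109 (edgeR adjusted p = 0.0151), but without normoxic shControl replicate 1, normoxic shControl replicate 2 or normoxic shRIPOR3 replicate 3 it was not called (adjusted p = 0.0557 to 0.0612).

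IARS2, the most abundant mitochondrial member (ENSG00000067704.9, chromosome 1, 220094102 to 220148041, plus strand), had 166, 170 and 166 CPM in shRIPOR3 against 206, 215 and 200 CPM in shControl libraries. It fell by 0.31 on the log2 scale (SE 0.0375, edgeR adjusted p = 3.76e-07), without overlap. Its cytosolic counterpart IARS moved up in the same libraries, with 315, 315 and 318 CPM in shRIPOR3 against 234, 222 and 232 CPM in shControl (0.46 ± 0.0357).

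**Figure D2:**
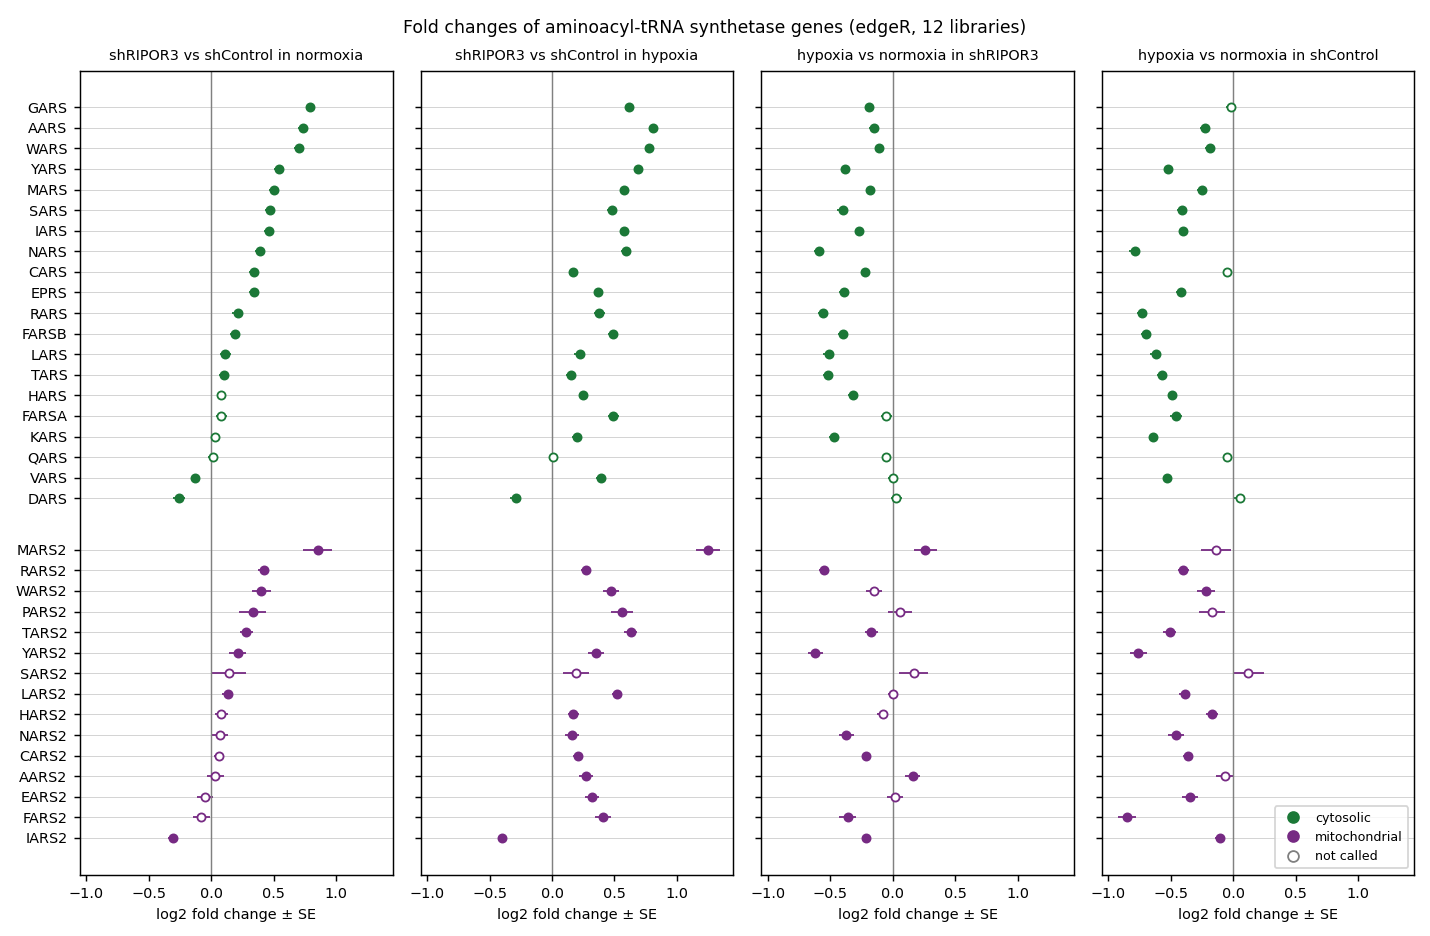
Log2 fold change ± SE (horizontal) of tested synthetase genes in 4 comparisons, cytosolic in green above and mitochondrial in purple below, ordered by the normoxic effect of the hairpin. Filled points passed an adjusted p of 0.05. The hairpin panels lie mostly right of 0, up to 1.25 for MARS2 in hypoxia, and the hypoxia panels mostly left, down to -0.85 for FARS2.

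In hypoxia the hairpin's effect took in nearly the whole family. Of 20 cytosolic genes 18 rose, DARS fell and QARS did not pass, with a median log2 fold change of 0.44. Of 16 mitochondrial genes 14 rose, IARS2 fell and SARS2 did not pass, with a median of 0.29. Over all genes tested, 30.7% were called higher and 31.2% lower with a median of -0.00, and among those above 100 CPM 46.7% were called higher with a median of 0.06. At least 1.5-fold rises were made by the cytosolic AARS, WARS, YARS, GARS and NARS and by the mitochondrial MARS2 and TARS2, against 6.22% of all genes.

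AARS led the cytosolic genes in hypoxia, with 406, 406 and 415 CPM in shRIPOR3 against 238, 232 and 231 CPM in shControl libraries (0.81 ± 0.0357, edgeR adjusted p = 2.63e-15). WARS had 185, 188 and 179 CPM in shRIPOR3 against 107, 109 and 106 CPM in shControl libraries (0.78 ± 0.0345). YARS had 191, 190 and 186 CPM in shRIPOR3 against 118, 117 and 117 CPM in shControl libraries (0.69 ± 0.0343). Every shRIPOR3 library of these genes was above every shControl library. GARS had 424, 416 and 417 CPM in shRIPOR3 against 268, 270 and 280 CPM in shControl (0.62 ± 0.0345). NARS, the asparagine enzyme, had 381, 428 and 388 CPM in shRIPOR3 against 262, 269 and 263 CPM in shControl (0.59 ± 0.0404), and IARS 261, 266 and 258 CPM in shRIPOR3 against 172, 179 and 172 CPM in shControl (0.58 ± 0.035). DARS again fell, with 199, 192 and 201 CPM in shRIPOR3 against 249, 221 and 251 CPM in shControl libraries (-0.29 ± 0.0439, edgeR adjusted p = 4.76e-06).

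Among the mitochondrial genes MARS2 showed the largest change of any member, with 9.64, 7.91 and 9.84 CPM in shRIPOR3 against 4.09, 3.43 and 4.04 CPM in shControl libraries (1.25 ± 0.094, edgeR adjusted p = 4.07e-11). TARS2, the mitochondrial threonine enzyme, had 40.3, 35.8 and 40.1 CPM in shRIPOR3 against 25.4, 25.6 and 24.5 CPM in shControl libraries (0.63 ± 0.0505). PARS2 had 9.60, 8.32 and 8.38 CPM in shRIPOR3 against 6.02, 6.69 and 5.19 CPM in shControl libraries (0.56 ± 0.0897). None of these overlapped between hairpins. LARS2 (leucine) had 81.4, 80.2 and 82.7 CPM in shRIPOR3 against 58.5, 56.9 and 54.8 CPM in shControl (0.52 ± 0.0406), and WARS2 13.2, 13.7 and 14.3 CPM in shRIPOR3 against 9.26, 10.2 and 10.3 CPM in shControl (0.47 ± 0.063). IARS2 had 143, 149 and 142 CPM in shRIPOR3 against 188, 196 and 190 CPM in shControl libraries and fell by 0.40 (SE 0.036). NARS2 was called higher at 0.16 ± 0.0594 although its libraries overlapped.

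The 8 synthetases of the multi-enzyme complex (DARS, EPRS, IARS, KARS, LARS, MARS, QARS and RARS) were set beside the 12 cytosolic genes outside it. With the hairpin, inside the complex 6 rose and DARS fell in hypoxia (median 0.30), and 5 rose and DARS fell in normoxia (median 0.16). Outside it 12 of 12 rose in hypoxia (median 0.49), and 9 rose and VARS fell in normoxia (median 0.37). Over all genes tested, 30.7% were called higher in hypoxia and 25.1% in normoxia. Among those above 100 CPM, the shares were 46.7% and 36.8%. None of the complex members reached 1.5-fold under either oxygen level, while 5 of those outside did in hypoxia and 3 in normoxia. Over all genes tested, 6.22% did so in hypoxia and 4.53% in normoxia. In hypoxia the count depends on the cut: IARS and MARS inside the complex (0.58 each) lay just under it, and NARS outside (0.59) just over. The ranges of the sets overlapped, from -0.29 to 0.58 inside and from 0.15 to 0.81 outside in hypoxia, and from -0.26 to 0.50 inside and from -0.13 to 0.79 outside in normoxia.

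The cytosolic genes whose windows held the core element also overlapped with those whose windows did not. In hypoxia the medians were 0.58 over the 6 with it and 0.43 over the 10 without it. In normoxia the 6 with it had a median log2 fold change of 0.43 (from 0.10 for TARS to 0.73 for AARS), and the 10 without it a median of 0.20 (from 0.01 for QARS to 0.79 for GARS). WARS, among the largest rises under either condition, had no match in its windows.

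The hairpin's effect differed between oxygen levels for 14 of the 36 genes (interaction term, edgeR adjusted p under 0.05), where 10.9% of all genes were called more positive in hypoxia and 12.3% more negative. The effect was more positive in hypoxia for VARS, FARSA, FARSB, NARS, HARS, KARS, RARS and YARS and for the mitochondrial FARS2, LARS2, EARS2 and TARS2. It was less positive for GARS and CARS. Medians were 0.10 over the cytosolic and 0.15 over the mitochondrial genes, against -0.02 over all genes tested. Among all genes above 100 CPM, 24.6% were called more positive and 14.6% more negative, with a median of 0.04. The 19 cytosolic members above 100 CPM were near this, with 7 more positive, 2 more negative and a median of 0.08. Below 100 CPM, 8.78% of all genes were called more positive, against 4 of 15 mitochondrial members. The mitochondrial count of 4 became 7 without hypoxic shControl replicate 3 or without hypoxic shRIPOR3 replicate 2, and 6 without normoxic shControl replicate 2.

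VARS, the valine enzyme, had the largest difference, 0.53 ± 0.0492 (edgeR adjusted p = 4.41e-08), and its direction turned. It had 204, 197 and 199 CPM in shRIPOR3 against 155, 151 and 151 CPM in shControl under hypoxia, the reverse of its order in normoxia given above. With TMM scaling the 6 shRIPOR3 libraries lay between 195 and 204 CPM whatever the oxygen, and the shControl libraries moved. Over the alternative fits the change with hypoxia in shRIPOR3 cells ran from -0.02 to 0.12 and was called in at least 1. In shControl cells it ran from -0.55 to -0.42. FARSA and FARSB, the subunits of the phenylalanine enzyme, both had a positive interaction. FARSA had 370, 360 and 377 CPM in shRIPOR3 against 263, 262 and 263 CPM in shControl under hypoxia, while in normoxia shRIPOR3 had 347, 392 and 404 CPM and shControl 375, 342 and 362 CPM, which overlap. FARSB had 75.6, 75.8 and 73.0 CPM in shRIPOR3 against 52.0, 53.4 and 54.8 CPM in shControl under hypoxia, and 97.8, 99.7 and 97.7 CPM in shRIPOR3 against 87.4, 91.1 and 82.0 CPM in shControl under normoxia. The interaction was 0.41 ± 0.0649 for FARSA and 0.30 ± 0.0571 for FARSB.

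FARS2, the mitochondrial phenylalanine enzyme, had an interaction of 0.48 ± 0.0951. It had 10.8, 10.6 and 11.2 CPM in shRIPOR3 against 8.04, 8.43 and 8.23 CPM in shControl under hypoxia, whereas in normoxia the libraries overlapped at 14.0, 13.8 and 14.3 CPM in shRIPOR3 and 16.1, 14.4 and 13.9 CPM in shControl. All 3 genes for phenylalanine were thus among those whose response to the hairpin was larger in hypoxia. For GARS and CARS the interaction was -0.17 in each (SE 0.0492 and 0.0505, edgeR adjusted p = 0.0142 and 0.0146). Neither call held without hypoxic shControl replicate 3 (adjusted p = 0.108 for GARS and 0.133 for CARS), nor did that of GARS without hypoxic shControl replicate 2 (0.0666).

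Hypoxia lowered most cytosolic synthetase genes under either hairpin, and most mitochondrial ones in shControl cells. In shRIPOR3 cells 16 of 20 cytosolic genes fell and none rose (median -0.30), and 7 of 16 mitochondrial genes fell while MARS2 and AARS2 rose (median -0.11). In shControl cells 16 of 20 cytosolic genes fell and none rose (median -0.44), and 11 of 16 mitochondrial genes fell and none rose (median -0.29). Over all genes tested 30.4% were called lower and 25.2% higher in shRIPOR3, and 32.4% lower and 32.4% higher in shControl. At least 1.5-fold lower were NARS and YARS2 in shRIPOR3 cells, against 2.95% of all genes, and 5 cytosolic and 2 mitochondrial genes in shControl cells, against 7.39%. These comparisons share their normoxic or hypoxic libraries with the hairpin comparisons above.

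Abundant genes as a class were lower in hypoxia, and the part of abundance in the fall of the synthetases was not tested. Among the 2086 genes above 100 CPM, 59.3% were called lower in hypoxic shRIPOR3 cells (median -0.18) and 61.5% in hypoxic shControl cells (median -0.22). The 19 cytosolic members above 100 CPM had 15 called lower under each hairpin, which is 78.9%, with medians of -0.27 in shRIPOR3 and -0.42 in shControl. Scaling by library totals in place of TMM raised the median of all genes in the hypoxia comparisons to 0.110 in shRIPOR3 and 0.126 in shControl, and the cytosolic genes then had 12 lower and 2 higher in shRIPOR3 and 15 lower and 2 higher in shControl. With that scaling the mitochondrial genes had 5 lower and 5 higher in shRIPOR3 and 8 lower and 0 higher in shControl. The summed cytosolic level scaled by library totals was still lower in hypoxia, at 1236 ± 2.35 CPM per kb against 1413 ± 13.0 in normoxia for shRIPOR3, and 936.6 ± 5.43 in hypoxia against 1176 ± 9.12 in normoxia for shControl (SD, n = 3 each).

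**Figure D3:**
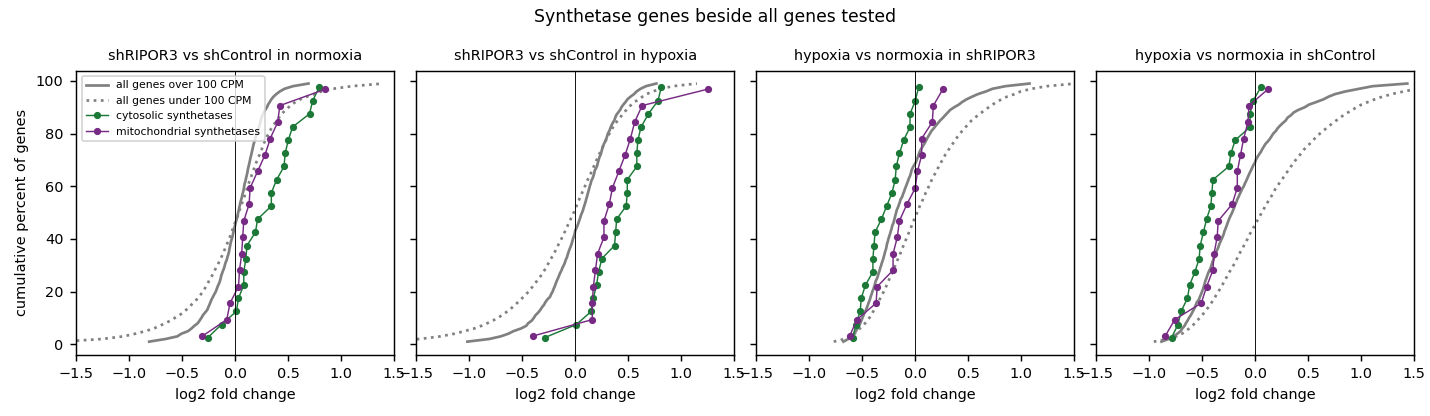
Cumulative percent of genes (vertical) against log2 fold change (horizontal) in 4 comparisons, with cytosolic synthetases in green, mitochondrial synthetases in purple and all genes tested above and below 100 CPM in grey. In hypoxia the grey line of genes above 100 CPM is itself shifted left, with medians of -0.18 and -0.22, and the cytosolic line lies further left.

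NARS fell furthest among the cytosolic genes. In shRIPOR3 cells it had 381, 428 and 388 CPM in hypoxia against 605, 593 and 602 CPM in normoxia (-0.59 ± 0.0402), and in shControl cells 262, 269 and 263 CPM in hypoxia against 455, 465 and 451 CPM in normoxia (-0.79 ± 0.0408, edgeR adjusted p = 2.98e-14). RARS, the arginine enzyme, had 184, 203 and 204 CPM in hypoxia against 297, 291 and 286 CPM in normoxia in shRIPOR3 cells (-0.56 ± 0.0411), and 150, 158 and 148 CPM in hypoxia against 255, 258 and 245 CPM in normoxia in shControl cells (-0.73 ± 0.0418). Oxygen separated all libraries of these genes within each hairpin. KARS, the lysine enzyme, had 343, 351 and 360 CPM in hypoxia against 508, 473 and 479 CPM in normoxia in shRIPOR3 cells (-0.47 ± 0.0371), and 308, 298 and 309 CPM in hypoxia against 476, 472 and 482 CPM in normoxia in shControl cells (-0.64 ± 0.0373).

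TARS, LARS and FARSB completed the 6 largest cytosolic falls within each hairpin. In shRIPOR3 cells they fell by 0.52, 0.51 and 0.40 on the log2 scale, and in shControl cells by 0.57, 0.62 and 0.70. The cytosolic genes that rose at least 1.5-fold with the hairpin in normoxia had these values: in shRIPOR3 cells GARS fell by 0.19, AARS by 0.15 and WARS by 0.11, and in shControl cells AARS fell by 0.23 and WARS by 0.19 while GARS did not pass (-0.02 ± 0.0352). DARS and QARS passed in neither hairpin. GARS and CARS were the other cytosolic genes that did not pass in shControl cells, and FARSA and VARS those in shRIPOR3 cells.

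Among the mitochondrial genes YARS2, the tyrosine enzyme, averaged 12.3 ± 0.479 CPM in hypoxia against 18.9 ± 1.12 CPM in normoxia in shRIPOR3 cells (SD, n = 3 each), a log2 fold change of -0.62 ± 0.0616 (SE). In shControl cells it averaged 9.62 ± 0.581 CPM in hypoxia against 16.4 ± 0.123 CPM in normoxia (-0.76 ± 0.0671). FARS2 fell by 0.36 (SE 0.0655) in shRIPOR3 and by 0.85 (SE 0.0694) in shControl cells. RARS2 fell by 0.55 in shRIPOR3 and 0.40 in shControl cells, NARS2 by 0.37 in shRIPOR3 and 0.46 in shControl cells, and TARS2 by 0.17 in shRIPOR3 and 0.51 in shControl cells. The rises of MARS2 (0.26 ± 0.0927, edgeR adjusted p = 0.0196) and AARS2 (0.16 ± 0.0615, edgeR adjusted p = 0.0264) in shRIPOR3 cells were not called without normoxic shRIPOR3 replicate 1, hypoxic shRIPOR3 replicate 1 or hypoxic shRIPOR3 replicate 3. Their adjusted p-values were then 0.0708 to 0.0982 for MARS2 and 0.0828 to 0.154 for AARS2.

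Cytosolic and mitochondrial genes for the same amino acid were compared within each library as a log2 ratio of counts per kilobase, which needs no scaling between libraries. There are 17 such pairs, counting EPRS against EARS2 and PARS2, and FARSA and FARSB against FARS2. With the hairpin the ratio was higher in 11 pairs and lower in 6 in hypoxia (median difference 0.08), and higher in 10 and lower in 7 in normoxia (median 0.26). With hypoxia it was higher in 3 and lower in 14 in shRIPOR3 cells (median -0.22), and higher in 6 and lower in 11 in shControl cells (median -0.12). These differences are described without a test.

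Isoleucine had the widest shift with the hairpin. Per kilobase, the geometric mean ratio of IARS to IARS2 was 1.02 in hypoxic shRIPOR3 and 0.513 in hypoxic shControl cells, and 1.06 in normoxic shRIPOR3 and 0.624 in normoxic shControl cells. The log2 ratio was thus 0.99 higher in shRIPOR3 in hypoxia and 0.77 higher in normoxia. Isoleucine is the sole amino acid for which the mitochondrial gene had more RNA per kilobase than the cytosolic gene, in the shControl groups. This order depends in part on the exon lengths used. Before division by length, IARS had 229 CPM and IARS2 207 CPM in normoxic shControl cells, and 175 and 191 CPM in hypoxic shControl cells. Alanine had the next largest upward shift in normoxia and in hypoxia, with a ratio of AARS to AARS2 of 17.1 in hypoxic shRIPOR3, 11.7 in hypoxic shControl, 21.3 in normoxic shRIPOR3 and 13.1 in normoxic shControl cells. Methionine went the other way: MARS to MARS2 was 6.84 in hypoxic shRIPOR3, 10.8 in hypoxic shControl, 9.22 in normoxic shRIPOR3 and 11.8 in normoxic shControl cells, a difference between hairpins of -0.66 in hypoxia and -0.36 in normoxia.

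Threonine also had lower ratios in shRIPOR3 cells. TARS to TARS2 was 9.58 in shRIPOR3 and 13.3 in shControl under hypoxia, and 12.2 in shRIPOR3 and 13.9 in shControl under normoxia. TARS2 rose with the hairpin by more than TARS at each oxygen level. Asparagine went the other way, with a ratio of NARS to NARS2 of 17.5 in shRIPOR3 and 13.0 in shControl under hypoxia, and 20.3 in shRIPOR3 and 16.2 in shControl under normoxia.

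**Figure D4:**
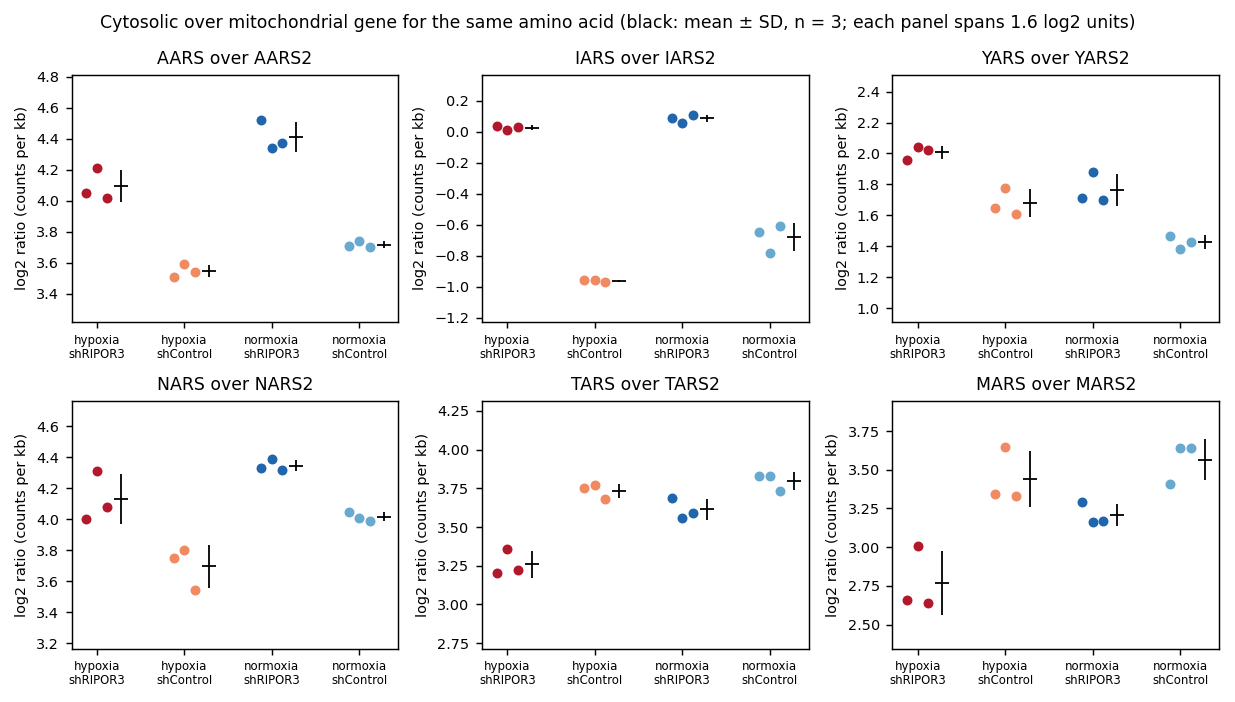
Log2 ratio of the cytosolic to the mitochondrial gene, in counts per kilobase, for 6 amino acids in each of the 12 libraries, with the mean ± SD of 3 in black. Each panel spans the same height. The ratio is higher in shRIPOR3 than in shControl for AARS, IARS, YARS and NARS at both oxygen levels, and lower for TARS and MARS, with IARS over IARS2 crossing 0.

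The scaffold genes of the cytosolic complex rose with the hairpin in 3 of 3 cases in hypoxia and in 2 of 3 in normoxia (all genes 30.7% and 25.1% higher). AIMP1 rose by 0.33 ± 0.037 with the hairpin in hypoxia and by 0.33 ± 0.0379 in normoxia, and EEF1E1 by 0.41 ± 0.112 in hypoxia and 0.43 ± 0.119 in normoxia. AIMP2 rose by 0.56 ± 0.0443 in hypoxia and had -0.00 ± 0.0462 in normoxia. All 3 fell with hypoxia under either hairpin (all genes 30.4% lower in shRIPOR3 and 32.4% in shControl).

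The mitochondrial steps that follow charging split. QRSL1 and GATC, subunits of the amidotransferase that completes glutaminyl-tRNA, rose with the hairpin in hypoxia (0.58 and 0.44) and in normoxia (0.21 and 0.19), and GATB, the remaining subunit, rose in hypoxia (0.34 ± 0.044) and had 0.02 ± 0.0473 in normoxia. MTFMT, which formylates the methionine that MARS2 loads, fell by 0.83 (SE 0.107) in hypoxia and by 0.92 (SE 0.136) in normoxia. The RNAs of MARS2 and MTFMT thus changed in opposite directions with the hairpin. Of 8 mitochondrial translation factors tested, 6 rose and MTRF1 fell with the hairpin at each oxygen level, with GFM1, an elongation factor, at 0.69 in hypoxia and 0.43 in normoxia. With hypoxia 7 of the 8 fell in shRIPOR3 and 8 of 8 in shControl cells. Over all genes tested, 30.7% were called higher with the hairpin in hypoxia and 25.1% in normoxia. With hypoxia, 30.4% were called lower in shRIPOR3 and 32.4% in shControl cells.

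Most of the genes that make transfer RNA ready for charging also rose with the hairpin. Of 27, 24 rose and none fell in hypoxia (median 0.51), 9 of them at least 1.5-fold, and 18 rose and 2 fell in normoxia (median 0.23). Over all genes tested, 30.7% were called higher in hypoxia, 6.22% rose at least 1.5-fold there, and 25.1% were called higher in normoxia. TRMT61A, a subunit of a tRNA methyltransferase, rose by 1.23 ± 0.06 in hypoxia and 0.51 ± 0.0661 in normoxia, and XPOT, which exports tRNA from the nucleus, by 0.63 ± 0.0337 in hypoxia and 0.50 ± 0.0345 in normoxia. The interaction was positive and called for 17 of the 27 (all genes 10.9%). With hypoxia 14 fell and 2 rose in shRIPOR3 cells (median -0.17), and 23 fell and 1 rose in shControl cells (median -0.50). Over all genes tested 30.4% were called lower in shRIPOR3 and 32.4% in shControl cells.

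The amino acid response moved up with the hairpin too. Of 12 genes, 9 rose and ATF3 fell in hypoxia (median 0.34), and 10 rose and none fell in normoxia (median 0.72). The shares higher were 75.0% in hypoxia and 83.3% in normoxia, against 30.7% and 25.1% of all genes. Unlike that of most synthetases called, the interaction was negative for 5 of the 12 and positive for 0 (median -0.29). Over all genes, 12.3% were called negative and 10.9% positive (median -0.02). ATF4 itself had 437 to 448 CPM in shRIPOR3 and 299 to 305 CPM in shControl under hypoxia, and 505 to 516 CPM in shRIPOR3 and 288 to 290 CPM in shControl under normoxia. DDIT3, a target of ATF4, rose by 1.01 ± 0.0552 in hypoxia and 1.23 ± 0.0624 in normoxia, and CHAC1, a glutathione-degrading enzyme, by 0.52 ± 0.124 in hypoxia and 1.15 ± 0.212 in normoxia.

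Under hypoxia this list had genes moving both ways. In hypoxic shControl cells 7 of the 12 response genes rose and 2 fell (median 0.39), including SESN2 (0.81 ± 0.0759) and TRIB3 (0.44 ± 0.061), while 16 of 20 cytosolic synthetases fell. In hypoxic shRIPOR3 cells 4 rose and 4 fell (median -0.02). Of 16 transporter and amino acid synthesis genes tested, 13 rose with the hairpin in hypoxia and 13 in normoxia (all genes 30.7% and 25.1% higher). They were led by PSAT1 of serine synthesis (1.00 ± 0.0365 in hypoxia and 0.96 ± 0.0392 in normoxia). With hypoxia, 7 of these 16 rose and 5 fell in shRIPOR3 and 7 rose and 6 fell in shControl cells, which is 43.8% higher and 31.2% lower in shRIPOR3 (all genes 25.2% and 30.4%) and 43.8% higher and 37.5% lower in shControl (all genes 32.4% and 32.4%). SLC7A1, a carrier of arginine and lysine, rose by 0.94 ± 0.0366 in shRIPOR3 and 0.93 ± 0.038 in shControl cells, where RARS and KARS fell.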

How the data were processed

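RNA was sequenced from 12 libraries. The authors deposited raw gene counts, and per the submitters' processing notes reads were trimmed with fastp 0.23.4, aligned to GRCh38 with STAR 2.5.3a and counted with featureCounts. The annotation, the strand setting and the handling of duplicates were not given in the sources used here. Genes kept by filterByExpr (15648) were fitted with edgeR 4.0.16 (R 4.3.3): TMM scaling, 1 coefficient per group, all 12 libraries, quasi-likelihood F-test, Benjamini-Hochberg adjustment over all genes, called at an adjusted p under 0.05. The SE is the log2 fold change over the square root of F. The biological coefficient of variation was 3.74%. Exon lengths are merged GENCODE 29 exons. The script was tested on simulated data. Alternatives were DESeq2 1.42.0, other scalings and filters, 2-group fits, a replicate term and leaving out each library. Members, lists and the promoter element were chosen with earlier results of these data known. Named in each comparison are up to 6 cytosolic and 5 mitochondrial called genes of largest change and those called against most of their class; other members were named after their values were seen, to account for all. The values of 1 member are not reported here.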

Additional observations from a re-analysis of the deposited data

Results flagged for a closer look

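For 14 genes the hairpin's effect differed between oxygen levels by the interaction term (shRIPOR3 over shControl in hypoxia minus the same in normoxia, log2, edgeR adjusted p under 0.05). The difference was positive for VARS (0.53), FARS2 (0.48), FARSA (0.41), LARS2 (0.39), EARS2 (0.37), TARS2 (0.35), FARSB (0.30), NARS (0.20), HARS (0.17), KARS (0.17), RARS (0.17) and YARS (0.14). It was negative for CARS (-0.17) and GARS (-0.17). Over all genes tested, 10.9% were called more positive and 12.3% more negative, and among those above 100 CPM 24.6% and 14.6%. VARS is the gene among them whose called change was of opposite sign at the 2 oxygen levels, 0.39 in hypoxia and -0.13 in normoxia.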

How the results depend on the processing

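No gene named by the rule above for size or direction changed direction under any alternative. Of 1189 of their values under an alternative, 1175 kept their call and 14 lost it, in 5 of 60 gene and comparison combinations. All are given above, except that the interactions of CARS and GARS were also not called without a filter on low counts (edgeR adjusted p = 0.0902 and 0.0961). Members named outside the rule were less stable. With the hairpin, LARS, TARS, LARS2 and YARS2 in normoxia and NARS2 in hypoxia lost their call under at least 1 alternative. The interactions of KARS, RARS and YARS did too. So did the hypoxic falls of AARS, GARS, WARS and TARS2 in shRIPOR3 and of WARS in shControl cells. WARS in shRIPOR3 cells ran from -0.13 to 0.01. Mitochondrial genes with a positive interaction numbered 4, but 7 with median-of-ratios factors. Leaving out each library in turn gave 4 to 7 there and 6 to 10 for cytosolic genes. The same gave 13 to 15 mitochondrial and 18 cytosolic genes higher with the hairpin in hypoxia, and 4 to 7 mitochondrial and 12 to 14 cytosolic genes in normoxia. Genes lower in hypoxia numbered 15 to 17 cytosolic and 7 to 9 mitochondrial in shRIPOR3, and 16 cytosolic and 10 to 11 mitochondrial in shControl.

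Replicate numbers do not pair the libraries: over 18 pairs the correlations of same-numbered libraries ran from -0.0194 to 0.0254. With a replicate block 13 cytosolic genes were higher with the hairpin in normoxia in place of 14, and the other counts of genes called for the main comparisons were as in the fit without it. Without GARS and KARS, which also serve mitochondria, the cytosolic medians were 0.44 in hypoxia and 0.27 in normoxia with the hairpin. Low counts limit MARS2, SARS2, PARS2 and VARS2, and replicate libraries differed by 2.49 to 5.62 times the counting variance.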

Other observations

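Synthetases fall into 2 structural classes with unrelated catalytic folds. With the hairpin in hypoxia 15 of 17 tested class I genes and 16 of 18 class II genes rose (medians 0.38 and 0.34), and in normoxia 12 of 17 and 8 of 18 did (medians 0.21 and 0.09). EPRS, which holds a domain of each class, was left out of both. Over all genes tested, 30.7% were called higher with the hairpin in hypoxia and 25.1% in normoxia (medians -0.0 and 0.03).

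Of 6 genes around the synthetases that proofread or make selenocysteinyl-tRNA, 2 rose with the hairpin in hypoxia and 1 in normoxia. These shares, 33.3% and 16.7%, were near or below those over all genes, 30.7% and 25.1%. PSTK, the kinase of the selenocysteine route, rose with the hairpin (0.45 ± 0.0904 in hypoxia and 0.30 ± 0.105 in normoxia). DTD1, a deacylase that removes D-amino acids from tRNA, rose in hypoxia (0.20 ± 0.0489). TARSL2, a TARS-like gene outside the naming rule, fell in hypoxia (-0.47 ± 0.061) and had -0.16 ± 0.0717 in normoxia. Of 5 genes tested that are named as cytosolic elongation factors, all rose with the hairpin in hypoxia, by 0.28 to 0.43 (all genes 30.7% higher). In normoxia 3 of the 5 rose (all genes 25.1% higher). EEF1E1 is 1 of the 5 and is also counted above as a scaffold gene. EEF1A1, which carries charged tRNA to the ribosome, rose by 0.43 ± 0.0396 in hypoxia.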
